A study of Mus musculus with 18 samples.

Results

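The genes described here are the nuclear genes for subunits and assembly factors of mitochondrial complex I. They were chosen as the protein-coding genes of the deposited count table whose symbol begins with Nduf, which gave 46 of 55573 genes. By role they comprise 36 subunits of complex I (7 core and 29 accessory), 8 assembly factors (*Ndufaf1* to *Ndufaf8*), *Ndufa4* and its paralogue *Ndufa4l2*. The RNA came from peritoneal macrophages of C57BL/6 mice, sorted on CD11b and F4/80, with 3 libraries in each of 6 groups and each library made from a pool of 2 to 3 mice. Zeb1WT mice carry a floxed *Zeb1* gene without Cre, and Zeb1∆M mice carry the same floxed gene with Cre under the lysozyme 2 promoter (LysM-Cre), a promoter used by cells of the myeloid lineage. Both genotypes received either vehicle and then a single dose of the bacterial endotoxin lipopolysaccharide (the LPS group), a first and a second dose (LPS + LPS), or the biguanide Metformin followed by LPS (Metformin + LPS). No group was left without LPS.

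Complex I (NADH:ubiquinone oxidoreductase) takes electrons from NADH, passes them along a chain of iron-sulfur clusters to ubiquinone and pumps protons across the inner mitochondrial membrane. A peripheral arm in the matrix holds the N module, which oxidises NADH, and the Q module, which reduces ubiquinone, while a membrane arm pumps the protons. The nuclear genome encodes the core subunits of the peripheral arm and all accessory subunits, and mitochondrial DNA encodes the core subunits of the membrane arm. Assembly factors help to build the complex and are not part of it once mature. Metformin is known as a weak inhibitor of complex I, and macrophages exposed to LPS are known to shift from respiration towards glycolysis.

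Promoter windows of 250 bases before to 50 after the start site (RefSeq, GRCm38.p6) were at hand for 40 of the 46 members. The letters GCGCNTGCG, the core bound by NRF1, occurred on either strand in 11 of the 40 (27.5%) and in 6.59% of 27025 windows of all genes. AAGATGGCG, bound by YY1, occurred in 6 (15%) beside 1.49%, CCGGAAG, bound by ETS factors, in 6 (15%) beside 9.12%, and CAGGTG, an E-box bound by ZEB1, in 8 (20%) beside 20% of all windows. TCAAGGTCA, bound by ERR factors, occurred in 0 of 40 and 0.407% of all. Matches are a description of letters and not of binding. The 30-base stretches that follow show the NRF1 letters in capitals (or their reverse complement) in 4 members that recur in the results, read 5′ to 3′ on the strand of the gene.
*Ndufaf4* (chr4:24897960-24897989, plus strand): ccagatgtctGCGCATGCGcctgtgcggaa
*Ndufa8* (chr2:36049349-36049378, minus strand): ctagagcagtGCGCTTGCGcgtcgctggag
*Ndufb10* (chr17:24724430-24724459, minus strand): ctgcccactaCGCAGGCGCagctgtcacct
*Ndufs6* (chr13:73328483-73328512, minus strand): ccgccgactgctgtGCGCCTGCGccggcac
Of the 11 members with the NRF1 letters, all tested, 5 were called higher and 1 lower in Metformin + LPS than in LPS in Zeb1WT, and 4 higher and 1 lower in Zeb1∆M. The member called lower was *Ndufaf4* in both genotypes. In LPS + LPS against LPS, 4 were called higher in Zeb1WT, 1 in Zeb1∆M and 0 lower. With Metformin, 40% and 37.8% of all 45 tested members were called higher in Zeb1WT and Zeb1∆M, beside 13% and 12.6% of all genes. Lower calls took 4.44% and 2.22% of members, beside 12.2% and 13.5%. With LPS + LPS, 33.3% and 8.89% of members were higher, beside 18.6% and 15.8% of all genes. Whether the letters relate to the calls was not tested.

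Total counts per library ran from 14053706 to 30570439, and the members together took 0.066 to 0.213% of them. The targeted gene, *Zeb1*, stood at 6.41, 6.69 and 7.21 CPM (counts scaled to library size and TMM factor) in the Zeb1WT LPS libraries and at 2.3, 3.01 and 1.38 in Zeb1∆M LPS. It was lower in Zeb1∆M in LPS (log2 fold change -1.60, edgeR adjusted p = 0.031) and in Metformin + LPS (-1.55, edgeR adjusted p = 0.013), whereas in LPS + LPS, at 0.912, 2.52 and 1.07 CPM in Zeb1WT and 0.738, 0.926 and 0.758 in Zeb1∆M, the difference was not called (-0.88, edgeR adjusted p = 0.35). All 8 macrophage markers were detected in every group, and their sum was lower in LPS + LPS (16200 to 27010 CPM) than in LPS (33910 to 72100), which was not tested. The 9 T or NK cell markers summed to at most 4.437 CPM in any library. Library codes of the Metformin + LPS samples begin with other letters than those of all other samples, so whatever the code stands for cannot be told apart from Metformin.

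Per kilobase of transcript, most subunits stood above the assembly factors. In Zeb1WT LPS the highest mean levels were those of *Ndufa4* with 73.8 ± 5.34 CPM per kb (SD, n = 3), *Ndufa1* with 67.2 ± 7.87 and *Ndufb9* with 57.2 ± 1.51. The lowest were *Ndufaf7* with 0.893 ± 0.217 CPM per kb and *Ndufaf5* with 1.77 ± 0.264. The assembly factors *Ndufaf1* to *Ndufaf7* all stood at or below 4.04 CPM per kb in that group, and the one subunit among them was *Ndufb2* with 3.78 ± 0.0925. *Ndufa4l2*, a HIF1-induced paralogue of *Ndufa4*, had 0 counts in every LPS and Metformin + LPS library and 1 to 5 counts in each LPS + LPS library (17 in all), and was the only member too low to test. The other 45 members were among the 13443 genes tested in 1 edgeR fit over all 18 libraries.

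Fold changes below are relative to the TMM scaling, which sets most genes near 0. The factors differed between treatments. In the LPS groups they ran from 0.867 to 1.065, in LPS + LPS from 1.42 to 1.564 (Zeb1WT) and 1.504 to 1.507 (Zeb1∆M), and in Metformin + LPS from 0.445 to 0.708 (Zeb1WT) and 0.843 to 0.879 (Zeb1∆M). With library size alone, the median of all genes moved from 0.08 to 0.73 in LPS + LPS against LPS in Zeb1WT and from -0.03 to -0.74 in Metformin + LPS against LPS in Zeb1WT. The medians of the members are therefore given beside the median of all genes.

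A second LPS dose went with higher levels of some subunits in Zeb1WT macrophages. Of the 45 members tested, 15 were higher in LPS + LPS than in LPS and 1 was lower at an edgeR adjusted p under 0.05, beside 18.6% and 18% of all genes. In Zeb1∆M macrophages 4 were higher and 1 lower, beside 15.8% and 16.8% of all genes. The share of members higher in Zeb1∆M was thus below that of all genes. All 4 members higher in Zeb1∆M were also higher in Zeb1WT (*Ndufaf7*, *Ndufb10*, *Ndufs7* and *Ndufv3*). The median log2 fold change of the members was 0.36 in Zeb1WT beside 0.08 for all genes, and 0.16 in Zeb1∆M beside 0.01. Over the scalings and fits tried on all libraries or the groups compared, the distance was 0.12 to 0.29 in Zeb1WT. In Zeb1∆M it was 0.07 to 0.17. Both ranges were lowest with length and GC trends removed. That setting gave 9 of 45 members higher in Zeb1WT, beside 2535 of 13443 genes, and 3 in Zeb1∆M, beside 2060. Both member medians moved when 1 library was left out. In Zeb1WT the member median was 0.24 without replicate 3 of LPS + LPS and 0.50 without replicate 1. In Zeb1∆M it was 0.38 without replicate 1 of LPS and 0.02 without replicate 2, where the median of all genes was 0.04. By library, the median level of the members was 4.06 to 4.26 on the log2 CPM scale in Zeb1WT LPS and 4.44 to 4.71 in Zeb1WT LPS + LPS, without overlap. In Zeb1∆M the LPS libraries ran from 3.83 to 4.63 and took in those of LPS + LPS, 4.33 to 4.48. No member was called in the test of the difference between genotypes in this response, with 0 members at an unadjusted p under 0.05 in edgeR, beside 7% of all genes, and 0 called by DESeq2 (0.0149% of all genes were called by edgeR).

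**Figure D1:**
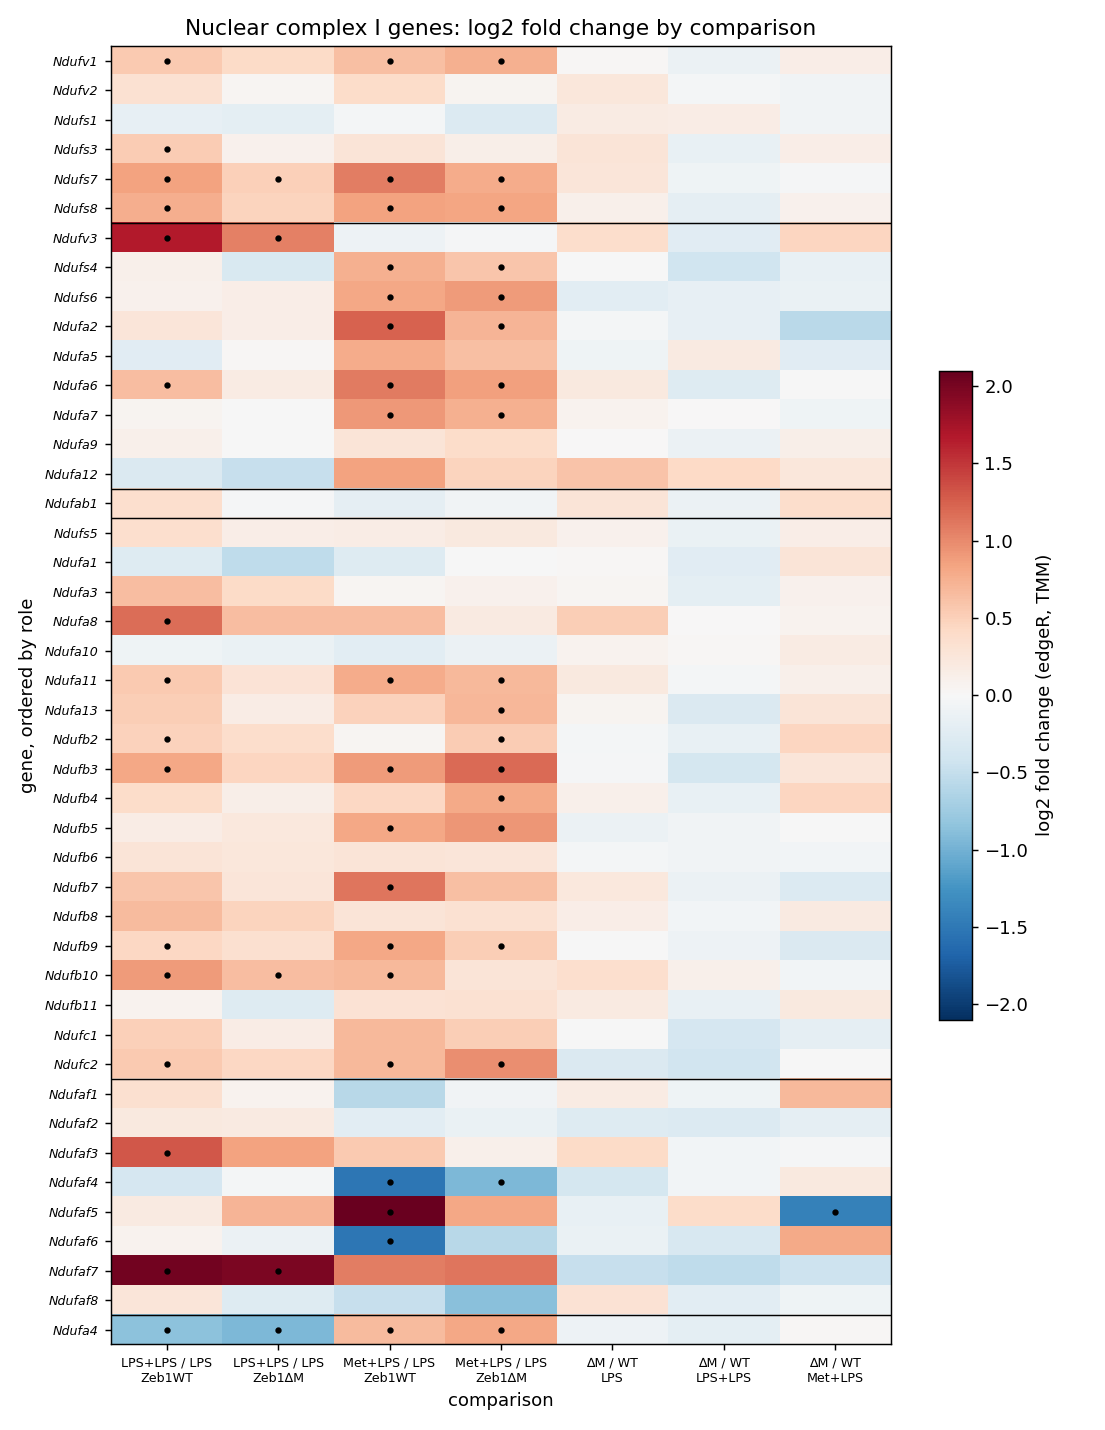
Log2 fold change (colour) of 44 of the 45 tested members (rows, ordered by role, lines between role groups) in 7 comparisons (columns); a dot marks an edgeR adjusted p under 0.05. Dots gather in the 4 treatment columns, and 1 dot (*Ndufaf5*) stands in the 3 genotype columns.

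Among the core subunits, which hold the redox centres and the ubiquinone site, 4 of 7 rose in Zeb1WT LPS + LPS (57.1%, beside 18.6% of all genes). In Zeb1∆M 1 of 7 rose (14.3%, beside 15.8% of all genes). *Ndufs7* (chromosome 10, 80249121 to 80256794, GRCm38, plus strand), which holds the last iron-sulfur cluster before ubiquinone, stood at 20.9, 18.8 and 22.1 CPM in the Zeb1WT LPS libraries and 34.1, 37.9 and 38.9 in LPS + LPS. The groups did not overlap, and the log2 fold change was 0.84 (SE 0.16, edgeR adjusted p = 0.00047). Zeb1∆M libraries stood at 24.6, 19.9 and 29.4 in LPS and 37.1, 32.3 and 34.7 in LPS + LPS, again without overlap (0.49, SE 0.16, edgeR adjusted p = 0.026). This call in Zeb1∆M was lost without replicate 1 or 2 of Zeb1∆M LPS or replicate 1 or 3 of Zeb1∆M LPS + LPS, with no count filter, and with length and GC trends removed, and the call in Zeb1WT was lost with the last of these. *Ndufv1*, which binds NADH and the flavin, stood at 43.3, 39.5 and 29 CPM in Zeb1WT LPS and 53.5, 47 and 62.6 in LPS + LPS (0.54, SE 0.17, edgeR adjusted p = 0.019). The Zeb1∆M libraries stood at 40, 32.6 and 40.8 and at 52.9, 47.4 and 49.2, without overlap but not called (0.40, edgeR adjusted p = 0.086). The iron-sulfur subunit *Ndufs8* rose by 0.76 and the Q module subunit *Ndufs3* by 0.53 in Zeb1WT (edgeR adjusted p = 0.023 and 0.039). The call for *Ndufv1* was kept in 8 of 13 alternatives, for *Ndufs8* in 9 and for *Ndufs3* in 6.

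Among the core subunits without a call in LPS + LPS, *Ndufs1*, the largest subunit of the complex, stood between 49.1 and 71.2 CPM in all LPS and LPS + LPS libraries and was called in neither genotype (-0.18 with a 95% interval of -0.45 to 0.09 in Zeb1WT, and -0.20 with -0.47 to 0.08 in Zeb1∆M).

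*Ndufv3*, an accessory subunit of the N module (chromosome 17, 31520115 to 31531331, GRCm38, plus strand), was the subunit with the largest rise. It stood at 12, 11.1 and 12.9 CPM in Zeb1WT LPS and 36.6, 27 and 50.1 in Zeb1WT LPS + LPS. In Zeb1∆M the libraries gave 16.9, 11.7 and 17.7 CPM in LPS and 33.4, 33.2 and 29.5 in LPS + LPS. Every LPS + LPS library lay above every LPS library of either genotype. The log2 fold change was 1.66 in Zeb1WT (SE 0.23, edgeR adjusted p = 1.7e-05) and 1.05 in Zeb1∆M (SE 0.23, edgeR adjusted p = 0.0016), and both calls held under all 13 alternatives run. In Metformin + LPS it stood at 10.2, 9.57 and 13.8 CPM in Zeb1WT and 15.2, 17.3 and 13.2 in Zeb1∆M, overlapping the LPS libraries of its genotype.

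On the membrane arm, 7 of 19 accessory subunits rose in Zeb1WT LPS + LPS (36.8%, beside 18.6% of all genes). In Zeb1∆M 1 of them rose (5.26%, below the 15.8% of all genes). *Ndufa8* stood at 25.1, 24.3 and 29.1 CPM in Zeb1WT LPS and 49.9, 46.8 and 79.4 in LPS + LPS, with no overlap (1.17, SE 0.25, edgeR adjusted p = 0.0013). In Zeb1∆M the LPS libraries were spread from 24.5 to 53.9 and overlapped those in LPS + LPS (0.65, edgeR adjusted p = 0.054). *Ndufb10* rose in both genotypes. Its libraries gave 11.8, 13.6 and 13.5 CPM in Zeb1WT LPS and 20.1, 20.1 and 31.7 in LPS + LPS (0.89, edgeR adjusted p = 0.006). The Zeb1∆M libraries gave 23.9, 12.1 and 14.1 and then 25, 25.5 and 27.3 (0.64, edgeR adjusted p = 0.043), so that replicate 1 of Zeb1∆M LPS came close to the LPS + LPS level. *Ndufb3* rose by 0.81 in Zeb1WT (edgeR adjusted p = 0.0063). The call for *Ndufb10* in Zeb1∆M was kept in 5 of 13 alternatives, and that in Zeb1WT in all 13. *Ndufc2*, *Ndufb9*, *Ndufa11* and *Ndufb2* were called in Zeb1WT at edgeR adjusted p values of 0.042 to 0.049 and kept the call in 3 to 5 of the 13. *Ndufab1*, the mitochondrial acyl carrier protein that also serves fatty acid synthesis, stood at 25.1, 23.6 and 25.2 CPM in Zeb1WT LPS and 28.8, 27.2 and 38.9 in LPS + LPS, not called (0.36, edgeR adjusted p = 0.2).

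Of the 8 assembly factors, 2 rose in Zeb1WT LPS + LPS (25%, beside 18.6% of all genes) and 1 in Zeb1∆M (12.5%, beside 15.8%). *Ndufaf7*, a mitochondrial arginine methyltransferase (chromosome 17, 78937136 to 78948052, GRCm38, plus strand), had 33 to 42 counts per library in Zeb1WT LPS and 164 to 305 in LPS + LPS. Its levels were 1.75, 1.67 and 2.55 CPM and 5.98, 8.71 and 9.56 CPM in these groups (log2 fold change 2.03, SE 0.42, edgeR adjusted p = 0.00087). In Zeb1∆M they were 1.19, 1.73 and 1.32 CPM in LPS and 6.78, 4 and 6.06 in LPS + LPS (1.98, SE 0.43, edgeR adjusted p = 0.0015). The groups did not overlap in either genotype, and both calls held under all 13 alternatives. Part of its sequence, 2.8% of its 50-base words, is shared with 283 other annotated genes. *Ndufaf3*, a Q module assembly factor, stood at 3.54, 3.5 and 2.48 CPM in Zeb1WT LPS and 7.33, 8.86 and 7.52 in LPS + LPS (1.31, SE 0.34, edgeR adjusted p = 0.0049). Zeb1∆M libraries stood at 6.09, 2.19 and 4.48 and at 8.05, 6.48 and 8.29, not called (0.84, edgeR adjusted p = 0.06). *Ndufaf1*, which acts in membrane arm assembly, and *Ndufaf2*, a paralogue of *Ndufa12*, were not called in either genotype. *Ndufaf1* stood at 6.45, 6.59 and 4.55 CPM in Zeb1WT LPS and 4.81, 9.93 and 7.46 in LPS + LPS (0.33, 95% interval -0.3 to 0.96), and *Ndufaf2* had only 10 to 64 counts in any library. Of the other assembly genes listed for comparison (11 tested), 4 rose in Zeb1WT (*Ecsit* by 1.36, *Tmem126b* by 1.30, *Aifm1* by 0.94 and *Acad9* by 0.61) and 1 in Zeb1∆M (*Aifm1* by 1.03).

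*Ndufa4* went the other way. It was first assigned to complex I and is now known as a subunit of cytochrome c oxidase (complex IV) (chromosome 6, 11900292 to 11907497, GRCm38, minus strand). It stood at 31.1, 35.8 and 34.8 CPM in Zeb1WT LPS and at 16, 22.5 and 17.8 in LPS + LPS, and in Zeb1∆M at 40.9, 25.6 and 28.2 and at 14.4, 15.4 and 19.4. All 6 LPS + LPS libraries lay below all 6 LPS libraries. The log2 fold change was -0.85 in Zeb1WT (SE 0.20, edgeR adjusted p = 0.0027) and -0.95 in Zeb1∆M (SE 0.20, edgeR adjusted p = 0.0015), and with library size alone the values were -0.19 and -0.35 and no longer called. In Metformin + LPS it stood at 64.6, 46.1 and 51.5 CPM in Zeb1WT and 60.7, 47.8 and 57.1 in Zeb1∆M, above every other library. Against LPS it was higher by 0.67 in Zeb1WT (SE 0.20, edgeR adjusted p = 0.02) and 0.81 in Zeb1∆M (SE 0.20, edgeR adjusted p = 0.0072). With library size alone these values were -0.05, with the sign turned, and 0.59, not called. Without replicate 1 or 3 of Zeb1WT LPS, without replicate 1 of Zeb1WT Metformin + LPS or with length and GC trends removed, the call in Zeb1WT was lost too.

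*AA467197* (NMES1), a paralogue of *Ndufa4* that is outside the members, is known to be induced in inflamed macrophages. It stood at 78.3, 38.3 and 55.2 CPM in Zeb1WT LPS and 474, 182 and 134 in Zeb1WT LPS + LPS. The Zeb1∆M libraries stood at 26.4, 21.9 and 32.7 in LPS and 172, 140 and 116 in LPS + LPS. It rose by 2.20 in Zeb1WT (SE 0.39, edgeR adjusted p = 0.00025) and 2.40 in Zeb1∆M (SE 0.39, edgeR adjusted p = 0.00015). In Metformin + LPS the Zeb1WT libraries held 180, 122 and 193 CPM and the Zeb1∆M libraries 36.7, 51 and 29.5. Zeb1∆M was lower there by 2.08 on the log2 scale (SE 0.39, edgeR adjusted p = 0.0049), although the test of whether the Metformin response differed between genotypes was not called (-0.99, edgeR adjusted p = 0.44).

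**Figure D2:**
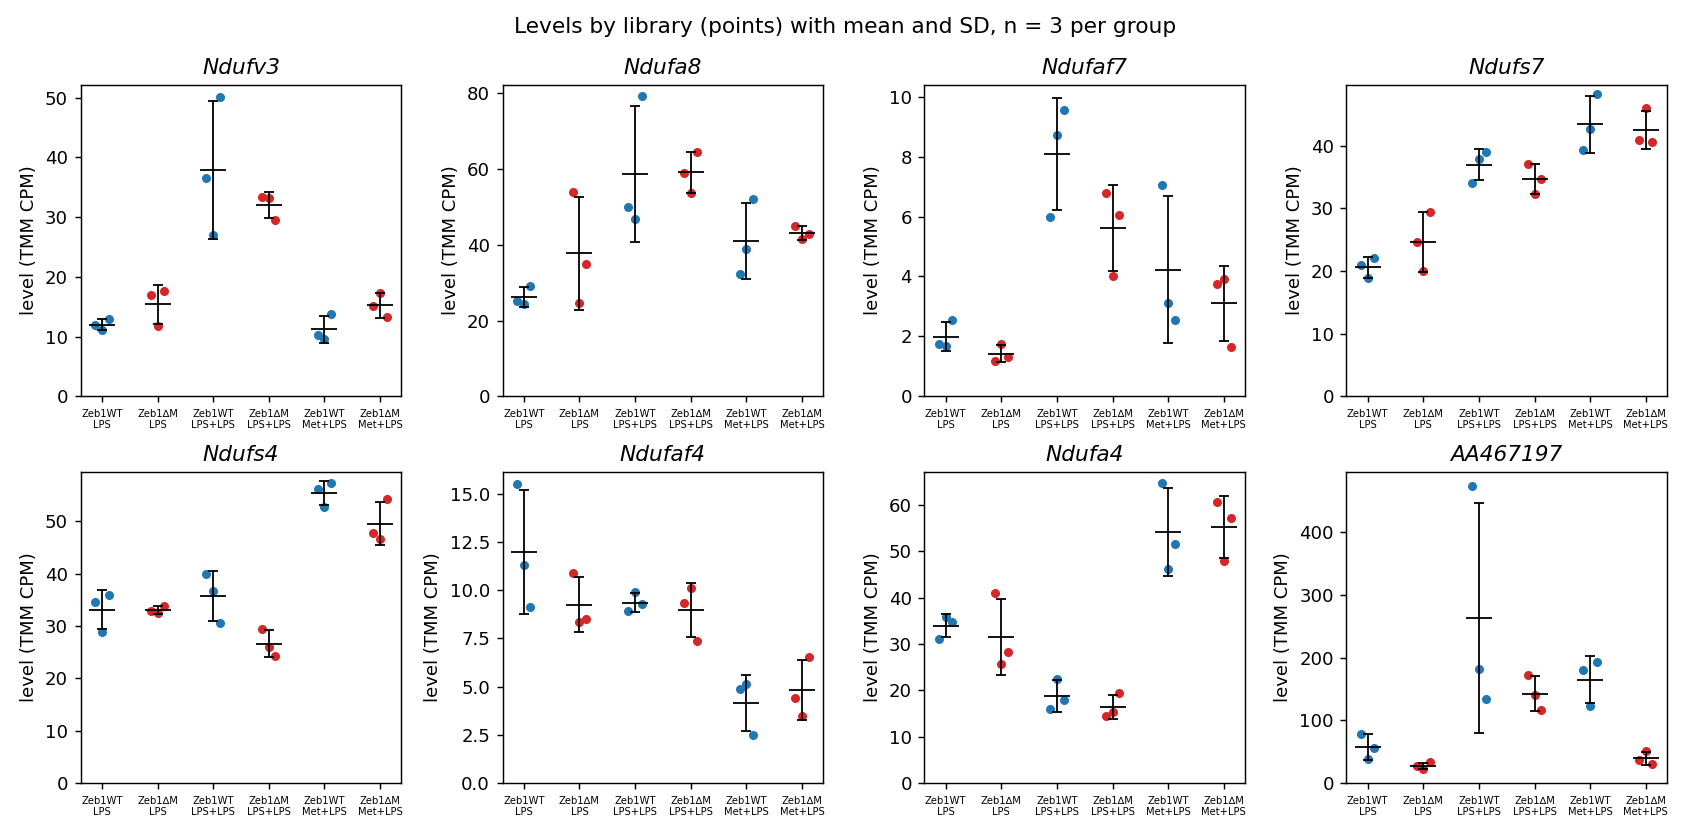
Levels in TMM-scaled CPM (vertical axes from 0) of 7 members and *AA467197* in the 6 groups; points are libraries (blue Zeb1WT, red Zeb1∆M), lines the mean and SD of 3 libraries. *Ndufv3* and *Ndufaf7* are highest in LPS + LPS, *Ndufs4* and *Ndufa4* in Metformin + LPS, and *Ndufaf4* is lowest in Metformin + LPS.

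Most complex I genes of mitochondrial DNA fell under a second LPS dose on the TMM scale. Of the 6 tested, 5 fell in Zeb1WT and 5 in Zeb1∆M (83.3% each, beside 18% and 16.8% of all genes), with medians of -1.25 and -1.11. The nuclear members had medians of 0.36 and 0.16, the latter 0.02 without replicate 2 of Zeb1∆M LPS. Mitochondrial genes took 0.67 to 1.12% of counts in Zeb1WT LPS and 0.72 to 0.96% in LPS + LPS. In Zeb1∆M they took 0.53 to 0.66% and 0.51 to 0.65%. *mt-Nd1* stood at 1470, 1500 and 960 CPM in Zeb1WT LPS and 624, 646 and 738 in LPS + LPS (-0.97, SE 0.29, edgeR adjusted p = 0.012). With library size alone the *mt-Nd1* value was -0.32 and not called. Nuclear subunits of complexes II to V had a median of 0.19 in Zeb1WT (5 of 42 higher, 0 lower) and 0.10 in Zeb1∆M (1 higher, 0 lower). The median of all genes was 0.08 and 0.01. The shares of these subunits called higher, 11.9% and 2.38%, were below the 18.6% and 15.8% of all genes. Of 5 tested genes for other enzymes that feed electrons to ubiquinone, *Sqor*, which oxidises sulfide, rose by 1.20 in Zeb1WT and 0.93 in Zeb1∆M, and *Gpd2*, the mitochondrial glycerol phosphate dehydrogenase, by 0.79 and 0.67 (edgeR adjusted p = 1.3e-05, 0.00023, 0.00072 and 0.0033). Of 13 regulators of respiratory genes tested, 1 rose and 4 fell in Zeb1WT (7.69% and 30.8%), and 2 rose and 4 fell in Zeb1∆M (15.4% and 30.8%). *Gabpb1*, a subunit of the ETS-family factor GABP, fell by 1.17 and by 1.21, and *Hif1a* fell by 0.71 and by 0.90. The largest rise among the 13 was 1.52 in Zeb1WT and 3.57 in Zeb1∆M. *Ppargc1b* stood low, at 0.538, 0.608 and 0.849 CPM in Zeb1WT LPS and 2.74, 1.68 and 1.32 in LPS + LPS. In Zeb1∆M it stood at 0.223, 0.204 and 0.459 and at 4.13, 4.29 and 2.41. Genes for mitochondrial ribosomal proteins had medians of 0.29 (27 of 78 higher, 5 lower) and -0.03 (10 higher, 10 lower). These counts were 34.6% and 6.41% in Zeb1WT, and 12.8% in either direction in Zeb1∆M.

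Sums of cell type markers also differed between LPS and LPS + LPS. The 14 neutrophil markers summed to 2928 to 7325 CPM in Zeb1WT LPS + LPS and 2947 to 3774 in Zeb1∆M LPS + LPS, against 1182 to 1808 and 990.4 to 1305 in LPS, with none at 0. The 7 dendritic cell markers summed to 470.9 to 825.2 CPM in Zeb1WT LPS and 7.439 to 19.38 in LPS + LPS, and to 283.9 to 1048 and 6.24 to 9.943 in Zeb1∆M. Of these, *Siglech* was at 0 in the LPS groups of both genotypes, *Flt3* in Zeb1∆M LPS and *Clec9a* in Zeb1∆M LPS + LPS. The 10 markers of large peritoneal macrophages, the resident population, summed to 24290 to 33520 CPM in Zeb1WT LPS and 8702 to 16300 in LPS + LPS, and to 37400 to 41120 and 18340 to 26690 in Zeb1∆M. The 7 markers of monocytes or small peritoneal macrophages were at 531.1 to 709 CPM and 775.9 to 824.5 in Zeb1WT, and overlapped in Zeb1∆M (303.2 to 568.8 and 547.5 to 654). B cell markers (11 of 12 found) were at 458.1 to 708.4 CPM and 131 to 189.9 in Zeb1WT, and overlapped in Zeb1∆M (112.8 to 172.7 and 127.4 to 253.3). The 6 proliferation genes were at 18.82 to 31.58 CPM and 58.79 to 71.58 in Zeb1WT, and at 18.35 to 20.66 and 61.29 to 66.8 in Zeb1∆M. The 13 eosinophil, mast cell or basophil markers overlapped between LPS and LPS + LPS in both genotypes. The part of these lists in the results was not tested. Each value is a plain sum, in which the most abundant markers weigh most. In such bulk samples a change in cell number and a change in marker RNA per cell cannot be told apart.

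Metformin before LPS went with higher levels of many subunits. Of the 45 members, 18 were higher and 2 lower than in LPS in Zeb1WT, beside 13% and 12.2% of all genes. The counts in Zeb1∆M were 17 and 1, beside 12.6% and 13.5% of all genes. Of these, 14 members were higher in both genotypes. The median was 0.62 in Zeb1WT beside -0.03 for all genes and 0.47 in Zeb1∆M beside -0.04. The direction in Zeb1WT depended on scaling: with library size alone 1 member was higher and 10 lower in Zeb1WT, and 5 were higher and 2 lower in Zeb1∆M. The distance between the member median and the median of all genes stayed at 0.56 to 0.66 in Zeb1WT and 0.46 to 0.54 in Zeb1∆M over the scalings and fits tried on all libraries or the groups compared. Leaving out 1 library gave 0.51 to 0.67 in Zeb1WT and 0.29 to 0.66 in Zeb1∆M, where the lowest value was that without replicate 2 of Zeb1∆M LPS (member median 0.27) and the highest that without replicate 1. No member was called in the test of a genotype difference in this response (0.201% of all genes were called), with 2 members at an unadjusted p under 0.05 in edgeR (*Ndufaf5* among them) beside 13.5% of all genes, and 0 called by DESeq2.

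*Ndufs4*, an accessory N module subunit whose loss in mice causes a Leigh-like disease, stood at 34.6, 28.8 and 35.9 CPM in Zeb1WT LPS and 56.2, 52.8 and 57.3 in Metformin + LPS. In Zeb1∆M it stood at 32.8, 32.4 and 33.9 and at 47.8, 46.6 and 54.3. The treatments did not overlap in either genotype (0.74, SE 0.15, edgeR adjusted p = 0.0016, and 0.58, SE 0.15, edgeR adjusted p = 0.0087), and with library size alone neither difference was called. In the peripheral arm 9 of 16 subunits rose in Zeb1WT and 8 in Zeb1∆M (56.2% and 50%, beside 13% and 12.6% of all genes). *Ndufs7* stood at 39.3, 42.6 and 48.2 CPM in Zeb1WT Metformin + LPS and 40.9, 46 and 40.5 in Zeb1∆M, above all LPS libraries (1.07 and 0.79, edgeR adjusted p = 0.00016 and 0.0021). *Ndufa6*, an LYR-motif protein that binds the acyl carrier, stood at 9.99, 9.84 and 9.94 CPM in Zeb1WT LPS and 24.1, 21.7 and 17.3 in Metformin + LPS (1.08, SE 0.18, edgeR adjusted p = 0.00038).

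*Ndufa2* stood at 26.5, 27.1 and 31 CPM in Zeb1WT LPS and 91.2, 49.5 and 58.7 in Metformin + LPS (1.23, SE 0.24, edgeR adjusted p = 0.00097). In Zeb1∆M its rise was 0.72, a call kept in 6 of 13 alternatives. *Ndufs6*, a zinc-binding N module subunit, stood at 18.4, 11.1 and 13.6 CPM in Zeb1∆M LPS and 27.8, 26.4 and 25.9 in Metformin + LPS (0.90, SE 0.21, edgeR adjusted p = 0.0052), and this call held under all 13 alternatives.

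In the membrane arm 7 of 19 subunits rose in Zeb1WT and 8 in Zeb1∆M (36.8% and 42.1%, beside 13% and 12.6% of all genes). *Ndufb7* stood at 19.7, 21.1 and 18.9 CPM in Zeb1WT LPS and 50.9, 30 and 49.6 in Metformin + LPS (1.12, SE 0.29, edgeR adjusted p = 0.008). *Ndufb3* led in Zeb1∆M, with 12.3, 9.38 and 10.5 CPM in LPS and 25.1, 27 and 20.9 in Metformin + LPS (1.18, SE 0.22, edgeR adjusted p = 0.00087). Both sets of libraries were apart. *Ndufc2* in Zeb1∆M stood at 17.8, 8.46 and 13 CPM in LPS and 25.3, 27.2 and 24.6 in Metformin + LPS (0.97, edgeR adjusted p = 0.0023). *Ndufb5* in Zeb1∆M stood at 28.6, 14.7 and 19.9 and at 36.3, 35.7 and 47.7 (0.93, edgeR adjusted p = 0.0088). The calls for *Ndufb3*, *Ndufc2* and *Ndufb5* in Zeb1∆M held under all 13 alternatives, library size alone included. In Zeb1WT these members were also called, but kept the call in 12, 7 and 8 of the 13 and lost it with library size alone. The Zeb1WT calls given above for *Ndufs7*, *Ndufa6*, *Ndufa2* and *Ndufb7* in Metformin + LPS against LPS were lost with library size alone too. *Ndufs1* was called in neither genotype (-0.04 and -0.28), nor was the acyl carrier protein *Ndufab1* (-0.18 and -0.08).

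Assembly factors did not follow the subunits under Metformin: their median was -0.35 in Zeb1WT and -0.11 in Zeb1∆M, beside 0.64 and 0.52 for the 36 subunits. Of the 8, 1 was called higher and 2 lower in Zeb1WT (12.5% and 25%, beside 13% and 12.2% of all genes). In Zeb1∆M 0 were called higher and 1 lower (0% and 12.5%, beside 12.6% and 13.5%). Of the 11 other assembly genes tested, 0 were higher and 1 lower in Zeb1WT (0% and 9.09%). In Zeb1∆M 1 of them was higher and 1 lower (9.09% each). *Ndufaf4*, a Q module assembly factor (chromosome 4, 24898083 to 24905001, GRCm38, plus strand), stood at 15.5, 11.3 and 9.15 CPM in Zeb1WT LPS and 4.85, 5.13 and 2.48 in Metformin + LPS. Zeb1∆M libraries stood at 10.9, 8.36 and 8.51 and at 4.41, 3.48 and 6.52. The groups did not overlap, and the log2 fold change was -1.52 in Zeb1WT (SE 0.31, edgeR adjusted p = 0.0015; called under all 13 alternatives) and -0.94 in Zeb1∆M (SE 0.30, edgeR adjusted p = 0.028; called under 8 of 13). *Ndufaf6*, which acts early in assembly, stood at 2.78, 4.92 and 4.24 CPM in Zeb1WT LPS and 1.71, 1.39 and 1.08 in Metformin + LPS, a log2 fold change of -1.51 (SE 0.41, edgeR adjusted p = 0.011). The Zeb1∆M libraries stood at 4.53, 3.26 and 3.11 and at 2.48, 1.37 and 3.35, overlapping and not called (-0.59, edgeR adjusted p = 0.28). The Zeb1WT call was lost without replicate 2 of Zeb1WT LPS or replicate 3 of Zeb1WT Metformin + LPS.

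*Ndufaf5*, whose protein hydroxylates the Ndufs7 subunit, was the assembly factor that rose. It stood at 1.75, 2.08 and 2.36 CPM in Zeb1WT LPS (39 to 41 counts) and 12, 4.07 and 10.3 in Zeb1WT Metformin + LPS (88 to 133 counts), a log2 fold change of 2.08 (SE 0.42, edgeR adjusted p = 0.0016). In Zeb1∆M Metformin + LPS the libraries stood at 3.6, 3.27 and 2.88 CPM. It was thereby the 1 member called between genotypes in Metformin + LPS, lower in Zeb1∆M by 1.43 on the log2 scale (SE 0.41, edgeR adjusted p = 0.048), where 5.76% of all genes were called. That call was lost with library size alone, the replicate block (0 members called), only the groups compared, or without replicate 1 or 3 of Zeb1WT or any replicate of Zeb1∆M Metformin + LPS. The test of a genotype difference in the Metformin response gave -1.27 (SE 0.59, edgeR adjusted p = 0.35).

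**Figure D3:**
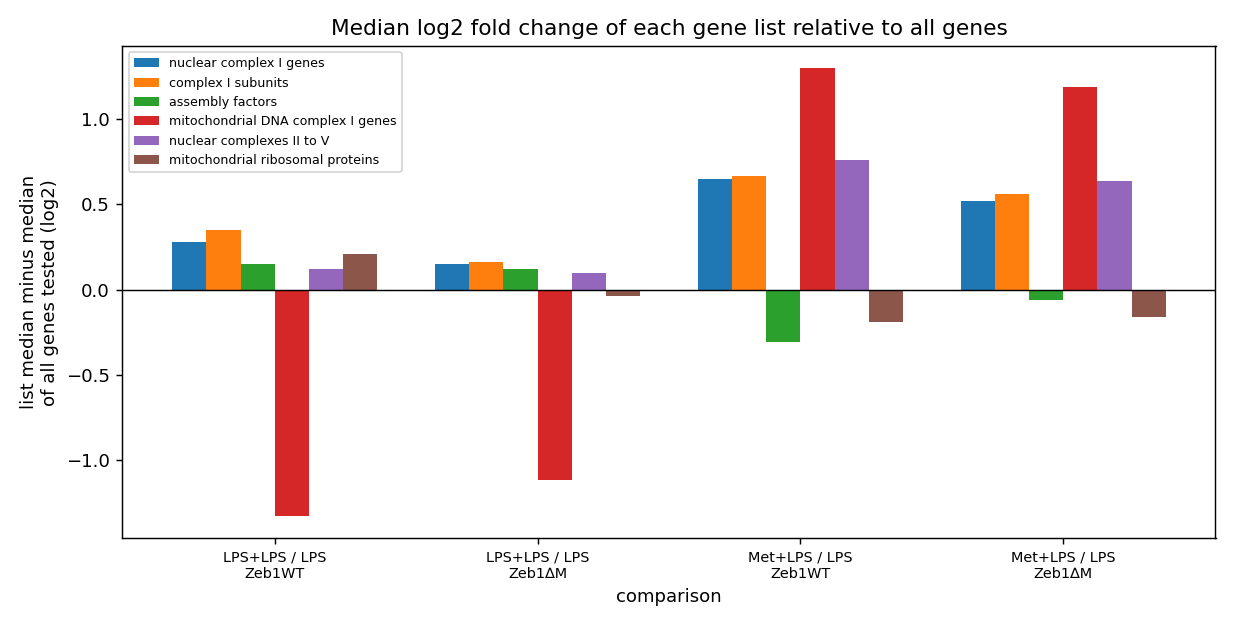
Median log2 fold change of 6 gene lists minus the median of all genes tested (vertical axis, log2) in 4 treatment comparisons (horizontal axis); each bar is 1 list. Complex I genes of mitochondrial DNA lie below 0 with LPS + LPS (-1.33 and -1.12) and above 0 with Metformin + LPS (1.30 and 1.19), and assembly factors lie below 0 only with Metformin + LPS among these 4 comparisons.

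Other respiratory genes moved with the subunits in Metformin + LPS. Nuclear subunits of complexes II to V were higher in 27 of 42 in Zeb1WT and 22 of 42 in Zeb1∆M, with 0 lower and medians of 0.73 and 0.60. Of all genes, 13% were higher and 12.2% lower in Zeb1WT, and 12.6% and 13.5% in Zeb1∆M, with medians of -0.03 and -0.04. The complex I genes of mitochondrial DNA were higher in 4 and 6 of 6, with medians of 1.27 and 1.15. Genes for mitochondrial ribosomal proteins had medians of -0.22 and -0.20, with 6 and 5 of 78 higher and 7 and 4 lower. Of the 13 regulators of respiratory genes, 1 rose and 3 fell in Zeb1WT, and 0 rose and 2 fell in Zeb1∆M. *Nrf1*, a transcription factor for such genes, fell by 0.50 in Zeb1WT and by 0.58 in Zeb1∆M (edgeR adjusted p = 0.025 and 0.011), and *Myc* fell by 1.97 in Zeb1WT (edgeR adjusted p = 4.3e-05). The largest rise among the 13 in Zeb1WT was 1.02. *Yy1* stood at 2.91, 3.6 and 4.49 CPM in Zeb1WT LPS and 11.3, 6.8 and 4.26 in Metformin + LPS, with overlap. In Zeb1∆M it stood at 8.7, 7.19 and 4.74 and at 3.85, 5.37 and 7.32. In the Metformin + LPS libraries 3 ribosomal RNA-like genes took 6.73 to 12.38% of counts in Zeb1WT and 4.24 to 14% in Zeb1∆M, against 0.29 to 2.29% elsewhere, and mitochondrial genes 1.19 to 2.79% against 0.51 to 1.12%.

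Of the cell type markers, the 14 for neutrophils summed to 1831 to 2533 CPM in Zeb1WT Metformin + LPS and 941.5 to 1011 in Zeb1∆M, where 2 (*Ly6g* and *Ngp*) were at 0. In Zeb1WT Metformin + LPS the large peritoneal macrophage markers summed to 40300 to 62420 CPM and those of monocytes or small peritoneal macrophages to 1180 to 1938, both above the LPS libraries. B cell markers (107.9 to 188.9 CPM), dendritic cell markers (102.4 to 110.4, none at 0) and eosinophil, mast cell or basophil markers (57.75 to 83.25, against 105.2 to 218.9, with *Epx* and *Mcpt8* at 0 in both groups) were below them. In Zeb1∆M Metformin + LPS the B cell markers (28.86 to 39.52 CPM) and the eosinophil, mast cell or basophil markers (4.919 to 5.848, against 17.61 to 249.8) were below the LPS libraries. The sums for large peritoneal macrophages, monocytes or small peritoneal macrophages, and dendritic cells overlapped them there (36720 to 49290, 335.8 to 658.9 and 111.3 to 599.7 CPM). Proliferation genes were above the LPS libraries in both genotypes (31.96 to 53.56 and 34.8 to 39.57 CPM). The part of these lists, the ribosomal RNA-like genes and the mitochondrial share in the results was not tested.

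Set directly against LPS + LPS, Metformin + LPS gave 9 members higher and 5 lower in Zeb1WT (22.6% and 25% of all genes) and 13 higher and 2 lower in Zeb1∆M (22.1% and 24%). These comparisons share their libraries with those above. *Ndufa4* was higher by 1.53 in Zeb1WT and 1.75 in Zeb1∆M (edgeR adjusted p = 8.1e-06 and 1.8e-06). *Ndufv3* was lower, with -1.76 and -1.07 (edgeR adjusted p = 6.9e-06 and 0.00085), as was *Ndufaf4* with -1.17 and -0.90 (edgeR adjusted p = 0.0041 and 0.02). *Ndufs4* was higher by 0.63 and 0.90 (edgeR adjusted p = 0.002 and 9.1e-05).

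*Ndufa12*, a peripheral arm subunit, was not called against LPS and stood here at 9.26, 8.37 and 16.6 CPM in Zeb1WT LPS + LPS and 25.2, 23.4 and 27 in Metformin + LPS (1.14, SE 0.32, edgeR adjusted p = 0.0065). In Zeb1∆M it stood at 12.6, 13 and 19.9 and at 26, 29.3 and 33.5 (0.96, SE 0.32, edgeR adjusted p = 0.018). The groups were apart in both genotypes. *Ndufa5*, a Q module subunit, stood at 6.82, 6.53 and 4.95 CPM in Zeb1WT LPS + LPS and 14.2, 8.46 and 14.7 in Metformin + LPS (1.02, SE 0.29, edgeR adjusted p = 0.0074). *Ndufaf1* was lower in Zeb1WT, with 4.57, 3.98 and 3.25 CPM in Metformin + LPS (-0.91, SE 0.33, edgeR adjusted p = 0.029; kept in 8 of 13 alternatives). With library size alone 40 members were lower and 0 higher in Zeb1WT, and 22 were lower and 1 higher in Zeb1∆M.

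Between genotypes, the call for *Ndufaf5* in Metformin + LPS was the only one among the members in the 3 treatments. In LPS no member was called and 0 had an unadjusted p under 0.05 in edgeR (0 called by DESeq2), where 1.29% of all genes were called and 13.6% had an unadjusted p under 0.05. In LPS + LPS no member was called and 1, *Ndufs4*, had an unadjusted p under 0.05 (0 called by DESeq2), where 0.655% of all genes were called and 11.7% had an unadjusted p under 0.05. *Ndufs4* stood there at 39.9, 36.7 and 30.5 CPM in Zeb1WT and 29.4, 26 and 24.3 in Zeb1∆M (-0.43 with a 95% interval of -0.72 to -0.13, edgeR adjusted p = 0.24). With library size alone 19 members were higher in Zeb1∆M in Metformin + LPS, where the median of all genes then stood at 0.60. Replicates 1 and 2 of Zeb1∆M LPS lay apart in several members, such as *Ndufa12* (32.7 and 12.8 CPM) and *Ndufb7* (34 and 14.1).

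**Figure D4:**
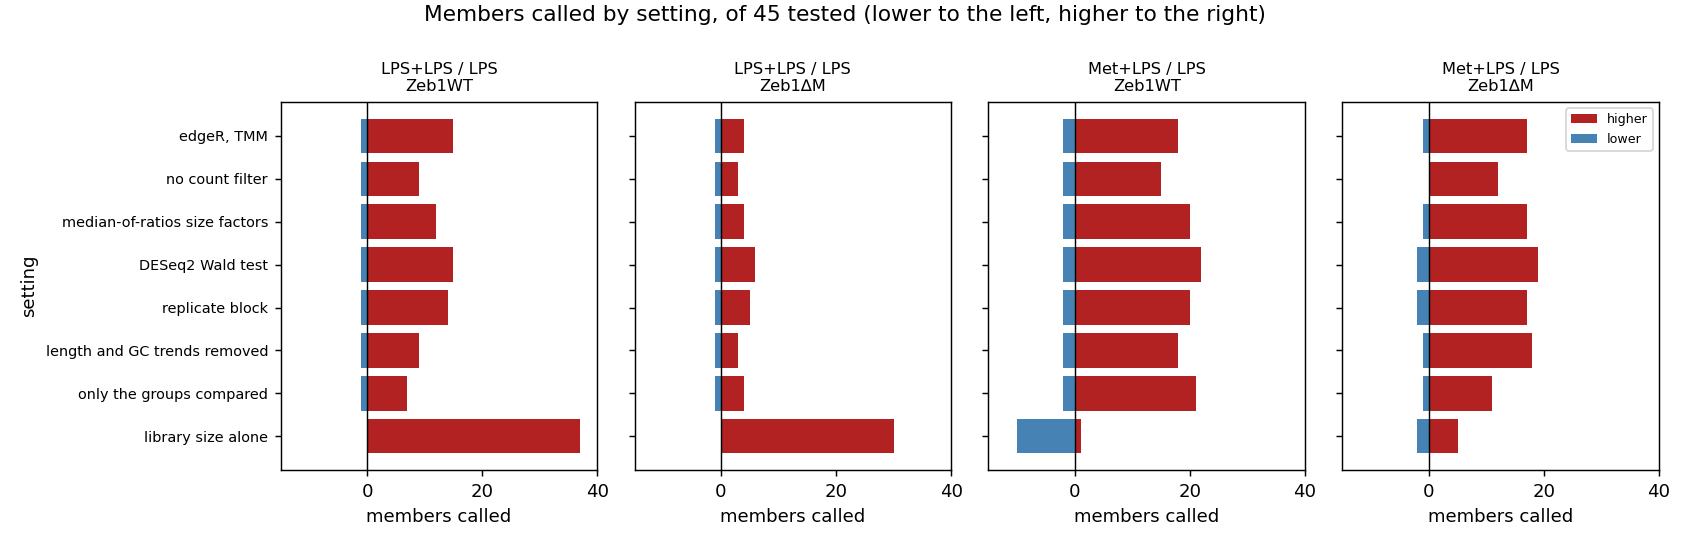
Members called higher (red, to the right) and lower (blue, to the left) of 45 tested, at an adjusted p under 0.05, in 4 treatment comparisons under 8 settings (vertical axis). Counts with library size alone stand apart from the rest, with 37, 30, 1 and 5 members higher.

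Some members share sequence or exons with other genes, and whether counting used strand is not given in the sources used here. The share of 50-base words found in other annotated genes was 37% for *Ndufb4*, 35.8% for *Ndufs3*, 31.1% for *Ndufs5*, 26.2% for *Ndufa12*, 23.4% for *Ndufb9* and 12.3% for *Ndufab1*, so their values are uncertain. Exons of *Ndufaf3* overlap *Impdh2*, those of *Ndufs6* overlap *Mrpl36*, those of *Ndufb5* overlap *Mrpl47* and those of *Ndufa2* overlap *Tmco6*. Among others, exons also overlap for *Ndufs1* (with *Eef1b2*), *Ndufs3* (*Kbtbd4*), *Ndufb2* (*Braf*), *Ndufa11* (*Vmac*) and *Ndufa4l2* (*Shmt2*).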

How the data were processed

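The authors deposited whole-number counts per gene. The submitters' processing notes name STAR, RSEM and DESeq2 (no versions given) and the genome build GRCm38. Whether RSEM estimates were rounded is not given in the sources used here. All 18 count columns were matched to samples by name, with 0 left over. Genes passing filterByExpr (13443) were tested in R 4.3.3 with edgeR 4.0.16 (TMM, robust quasi-likelihood, 1 coefficient per group, 18 libraries, no block), Benjamini-Hochberg adjusted per comparison over all genes and called under 0.05; DESeq2 1.42.0 was an alternative, with the others listed in the closing section. The scripts were tested on simulated data. SE is the log2 fold change divided by the root of F, and 95% intervals use 1.96 SE. Transcript length and GC came from GENCODE (99.3% of identifiers matched; 99% of tested genes and 100% of members). Total counts ran from 14053706 to 30570439. Per comparison up to 4 rises and 4 falls, genes fixed by role and up to 4 genes per other list were named; further members are given for their role and were chosen after their values were seen. Members and lists were chosen with earlier results of these data known. 1 member enters every count and median but is not reported here singly. Replicates are pools of mice.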

Additional observations from a re-analysis of the deposited data

Results flagged for a closer look

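Genes with an Nduf symbol that are not annotated as protein-coding were outside the members, and 2 of them held counts in every library. *Ndufb1-ps*, annotated as a long non-coding RNA, had 178 to 624 counts per library, and the processed pseudogene *Ndufb4c* had 47 to 237, both above the 3 counts that a count of 0 allows. They are listed because they lie in rows that no comparison of the members used. *Ndufb1-ps* was lower in LPS + LPS than in LPS in Zeb1∆M (-0.71, edgeR adjusted p = 0.015) and higher in Metformin + LPS than in LPS in Zeb1∆M (1.01, edgeR adjusted p = 0.0021).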

How the results depend on the processing

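Depth and replicate number limit the report: with 3 libraries per group many members lay near the threshold, and members without a call are not shown to be stable. Median-of-ratios size factors and the DESeq2 test left all 11 counts of called members within 1.5 times. Library size alone gave 37 (LPS + LPS against LPS, Zeb1WT), 30 (Zeb1∆M), 11 (Metformin + LPS against LPS, Zeb1WT), 7 (Zeb1∆M), 40 (Metformin + LPS against LPS + LPS, Zeb1WT), 23 (Zeb1∆M) and 19 (genotypes in Metformin + LPS), against 16, 5, 20, 18, 14, 15 and 1; this setting removes the TMM factors. No count filter gave 10 and 8 (LPS + LPS against LPS in Zeb1WT; Metformin + LPS against LPS + LPS in Zeb1∆M), removal of length and GC trends 10 in the first, and only the groups compared 8, 23 and 0 (those and genotypes in Metformin + LPS). The replicate block gave 0 in the last and moved no other count by over 1.5 times. Same-numbered libraries were not treated as paired in the main fit. Of 45 such pairs, 3 correlated above 0.1 (median 0.011), beside 5 of 90 differently numbered pairs (median -0.007). The cause of these moves was not tested.

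Leaving out 1 library gave 9 to 14 called members (LPS + LPS against LPS, Zeb1WT), 3 to 8 (Zeb1∆M), 12 to 21 and 9 to 21 (Metformin + LPS against LPS), 11 to 15 and 7 to 10 (Metformin + LPS against LPS + LPS), and 0 to 1 (genotypes in Metformin + LPS). The libraries whose absence moved a count by over 1.5 times were replicate 3 of Zeb1WT LPS + LPS (9 called against LPS), replicates 1 and 2 of Zeb1∆M LPS (8 and 3) and 1 and 3 of Zeb1∆M LPS + LPS (3 each). For Metformin + LPS against LPS they were replicates 1 and 3 of Zeb1WT LPS (13 and 12), replicate 2 of Zeb1∆M LPS (11) and replicate 1 of Zeb1∆M Metformin + LPS (9). Against LPS + LPS in Zeb1∆M they were all replicates but the second of Metformin + LPS, with 7 to 9 called. Without replicate 1 of Zeb1WT LPS + LPS, 14 members were called against LPS.

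Single values were followed for members called in a comparison and for those fixed by role. Of these, 24 turned direction with library size alone, an uncalled value being counted only if it was then called. In Metformin + LPS against LPS in Zeb1WT these were *Ndufa4* (-0.049), *Ndufc2* (-0.035), *Ndufb10* (-0.036) and *Ndufv1* (-0.054). Against LPS + LPS in Zeb1WT they were *Ndufs1* (-1.22), *Ndufb5* (-0.77), *Ndufa5* (-0.40), *Ndufa12* (-0.23), *Ndufs6* (-0.67), *Ndufs4* (-0.74), *Ndufa7* (-0.56), *Ndufa2* (-0.41) and *Ndufv1* (-1.24). In Zeb1∆M they were *Ndufb3* (-0.091), *Ndufb5* (-0.11), *Ndufa9* (-0.41), *Ndufc2* (-0.27), *Ndufs6* (-0.054), *Ndufa6* (-0.12), *Ndufb4* (-0.14), *Ndufa7* (-0.06), *Ndufa2* (-0.23) and *Ndufb11* (-0.23). In LPS + LPS against LPS in Zeb1WT it was *Ndufs1* (0.48). More members turned than are listed. With library size alone the median of all tested members moved from 0.62 to -0.12 in Metformin + LPS against LPS in Zeb1WT. Against LPS + LPS in Zeb1WT it moved from 0.09 to -1.27.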
